A study of Mus musculus with 2 samples.

Results

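A set of 30 genes that are known targets of the hypoxia-inducible factors (HIFs), and that act outside glycolysis, was followed across the cell types of the postischemic kidney. They were found by symbol, and 30 of 30 were present among the 32285 genes counted. The material was single-cell RNA from the injured kidney of 1 Cre- mouse and 1 PHDTiEC mouse, which carries the transgene Cdh5-CreERT2 with floxed alleles of all the HIF prolyl-hydroxylase genes (Phd1f/f, then Phd2f/f and Phd3f/f) and can lose them in cells that express Cdh5. Both animals were littermate males of 8 to 10 weeks, both went through 25 minutes of clamping of 1 renal artery, both received 4 tamoxifen doses of 3 mg from day 1, and the injured kidney of each was taken on day 14. The Cdh5 promoter drives Cre in endothelium, and other kidney cells are not its target. The label of the control says only that it lacks Cre and not whether it carries floxed alleles. Each genotype is 1 library of 1 mouse, so no p-value exists for any difference between genotypes, and the 95% intervals given with the values cover counting error only.

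HIFs are transcription factors made of an oxygen-labile α subunit and the stable partner ARNT. With oxygen, prolyl-hydroxylases (PHDs, genes Egln1, Egln2 and Egln3) mark the α subunit for destruction by the VHL ubiquitin ligase, and when they are lost or oxygen is short the dimer binds hypoxia response elements and raises its targets. The targets best known in endothelium act in glycolysis and angiogenesis, and those described here act in mitophagy and respiration, histone demethylation, lipid storage, protein folding in the secretory pathway and stress signalling.

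Cell types were rebuilt from marker genes, and a name ending in -like stands for a cluster named in that way. Endothelial-like cells numbered 401 in Cre- and 537 in the library labelled PHDTiEC, with 4900934 and 5772088 unique molecular identifiers (UMIs, 1 for each captured molecule) in total. They fell into 3 clusters: mREC-like cells (184 and 226), cREC-like cells (128 and 214) and an endothelial-like cluster that also carried mural genes (89 and 97). The names mREC and cREC are those of the study for medullary and cortical renal endothelial cells and follow its marker lists. Of the leading genes of the mREC-like cluster, Sox17, Gja4, Cldn5, Fbln5 and Fbln2 are also known from arterial endothelium, so its name stands for these genes and not for a place in the kidney, which was not tested. Tubular-like cells numbered 2301 and 2480, stromal-like cells 309 and 460, and immune-like cells 4033 and 4383. Endothelial marker genes held 0.587% and 0.695% of the UMIs of the endothelial-like cells and at most 0.0417% in the other compartments, and 28 barcodes were kept in both libraries, against 11.7 for independent draws. Values are UMIs per 1000000 UMIs of a class (CPM), a scale without gene length because the 3′ chemistry counts a molecule once, and a ratio is the log2 of the CPM in the library labelled PHDTiEC over that in Cre-.

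The floxed genes did not fall in the library labelled PHDTiEC. In endothelial-like cells Egln1 (encoding PHD2) stood at 67.9 CPM in Cre- and 191.8 CPM in PHDTiEC (log2 ratio 1.5, 1.32 to 1.68), Egln3 (PHD3) at 24.7 and 152.6 CPM (2.63, 2.35 to 2.91), and Egln2 (PHD1) at 36.7 and 39.7 CPM (0.11, −0.18 to 0.40). A 3′ count does not see an excised internal exon, so these values check neither the deletion nor the label, and every direction below is that of the library labelled PHDTiEC. Egln1 and Egln3 are themselves HIF targets.

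Hypoxia response elements hold the core letters ACGTG or GCGTG. RefSeq promoter windows on GRCm38.p6, from 250 bases before a gene's start to 50 after it, were available for 23 of the 30 genes (Ero1l under its RefSeq name Ero1a). The windows below are those of the 4 genes with the highest endothelial ratio among those with at least 100 UMIs and of the 2 genes with the lowest, each written 5′ to 3′ along the gene with matches to either core on either strand in capitals (on the opposite strand they read CACGT and CACGC).
Mgarp, chr3:51396498-51396797, minus strand: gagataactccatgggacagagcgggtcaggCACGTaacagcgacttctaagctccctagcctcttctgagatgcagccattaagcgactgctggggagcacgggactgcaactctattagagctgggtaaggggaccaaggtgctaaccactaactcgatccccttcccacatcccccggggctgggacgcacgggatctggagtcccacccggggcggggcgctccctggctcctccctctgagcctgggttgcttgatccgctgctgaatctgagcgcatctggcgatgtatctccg
Tmem45a, chr16:56886114-56886413, minus strand: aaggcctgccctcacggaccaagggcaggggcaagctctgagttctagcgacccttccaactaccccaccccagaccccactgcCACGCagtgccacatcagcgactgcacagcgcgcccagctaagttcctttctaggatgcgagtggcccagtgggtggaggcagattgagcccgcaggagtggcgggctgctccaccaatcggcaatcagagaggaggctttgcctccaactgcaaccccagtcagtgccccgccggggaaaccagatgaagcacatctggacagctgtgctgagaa
Ankrd37, chr8:45999801-46000100, minus strand: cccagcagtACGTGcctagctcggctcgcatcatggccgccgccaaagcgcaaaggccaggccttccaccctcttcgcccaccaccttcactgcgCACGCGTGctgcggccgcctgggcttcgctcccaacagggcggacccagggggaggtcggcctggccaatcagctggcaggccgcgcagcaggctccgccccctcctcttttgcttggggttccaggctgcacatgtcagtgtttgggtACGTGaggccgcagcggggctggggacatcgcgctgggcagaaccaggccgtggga
Bnip3, chr7:138909457-138909756, minus strand: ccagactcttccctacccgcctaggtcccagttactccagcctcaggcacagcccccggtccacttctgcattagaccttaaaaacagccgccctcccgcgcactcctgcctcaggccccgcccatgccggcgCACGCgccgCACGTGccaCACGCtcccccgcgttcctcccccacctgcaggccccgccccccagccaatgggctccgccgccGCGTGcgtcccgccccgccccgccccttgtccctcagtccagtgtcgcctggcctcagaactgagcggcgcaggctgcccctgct
Rab20, chr8:11478591-11478890, minus strand: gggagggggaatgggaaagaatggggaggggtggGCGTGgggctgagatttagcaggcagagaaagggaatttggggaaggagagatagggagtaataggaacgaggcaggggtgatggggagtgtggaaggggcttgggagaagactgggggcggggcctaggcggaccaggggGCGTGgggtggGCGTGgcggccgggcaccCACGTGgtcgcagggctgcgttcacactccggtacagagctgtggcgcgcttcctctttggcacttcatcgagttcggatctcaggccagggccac
Wsb1, chr11:79254646-79254945, minus strand: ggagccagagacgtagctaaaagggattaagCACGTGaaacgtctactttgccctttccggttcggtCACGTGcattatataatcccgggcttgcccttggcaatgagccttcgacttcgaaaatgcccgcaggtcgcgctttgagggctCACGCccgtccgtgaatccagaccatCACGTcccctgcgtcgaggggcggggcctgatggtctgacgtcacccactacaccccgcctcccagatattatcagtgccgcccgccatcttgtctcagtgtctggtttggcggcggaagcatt

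The Bnip3 window held 5 matches, the Ankrd37 window 4, and the Mgarp and Tmem45a windows 1 each, whereas Rab20 held 5 and Wsb1 6, although the latter pair had the lowest ratios of those 6 genes. The palindrome CACGTG counts as a match on both strands, and it occurs in the Bnip3, Rab20 and Wsb1 windows. Either core was found in 20 of 23 members' windows (87%) against 43.8% of 27025 windows of all genes, ACGTG in 14 (60.9%, all genes 19.6%) and GCGTG in 16 (69.6%, all genes 32.5%). Neither core lay in the windows of Depp1, Mxi1 and Insig2. Among members at least 2-fold higher in the endothelial-like cells of the library labelled PHDTiEC 9 of 10 windows held a core, and among the other members 11 of 13. The windows of all genes were not matched to those of the members by expression or base composition, and the part of either in these shares was not tested. A match is a description of letters in a window, not a binding site.

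In endothelial-like cells the members stood higher in the library labelled PHDTiEC as a group. Of the 29 members with at least 30 UMIs over both libraries, 11 were at least 2-fold higher there and 0 were at least 2-fold lower, where 1.55% of all 11772 genes with that count were 2-fold higher and 2.04% were 2-fold lower. The median log2 ratio of these members was 0.57, that of all genes −0.01, and 25 of 29 lay above 0, as did 5670 of all 11772 genes. Car9, a cell-surface carbonic anhydrase that is a common marker of hypoxia in tumours, had 0 and 3 UMIs and could not be compared.

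**Figure D1:**
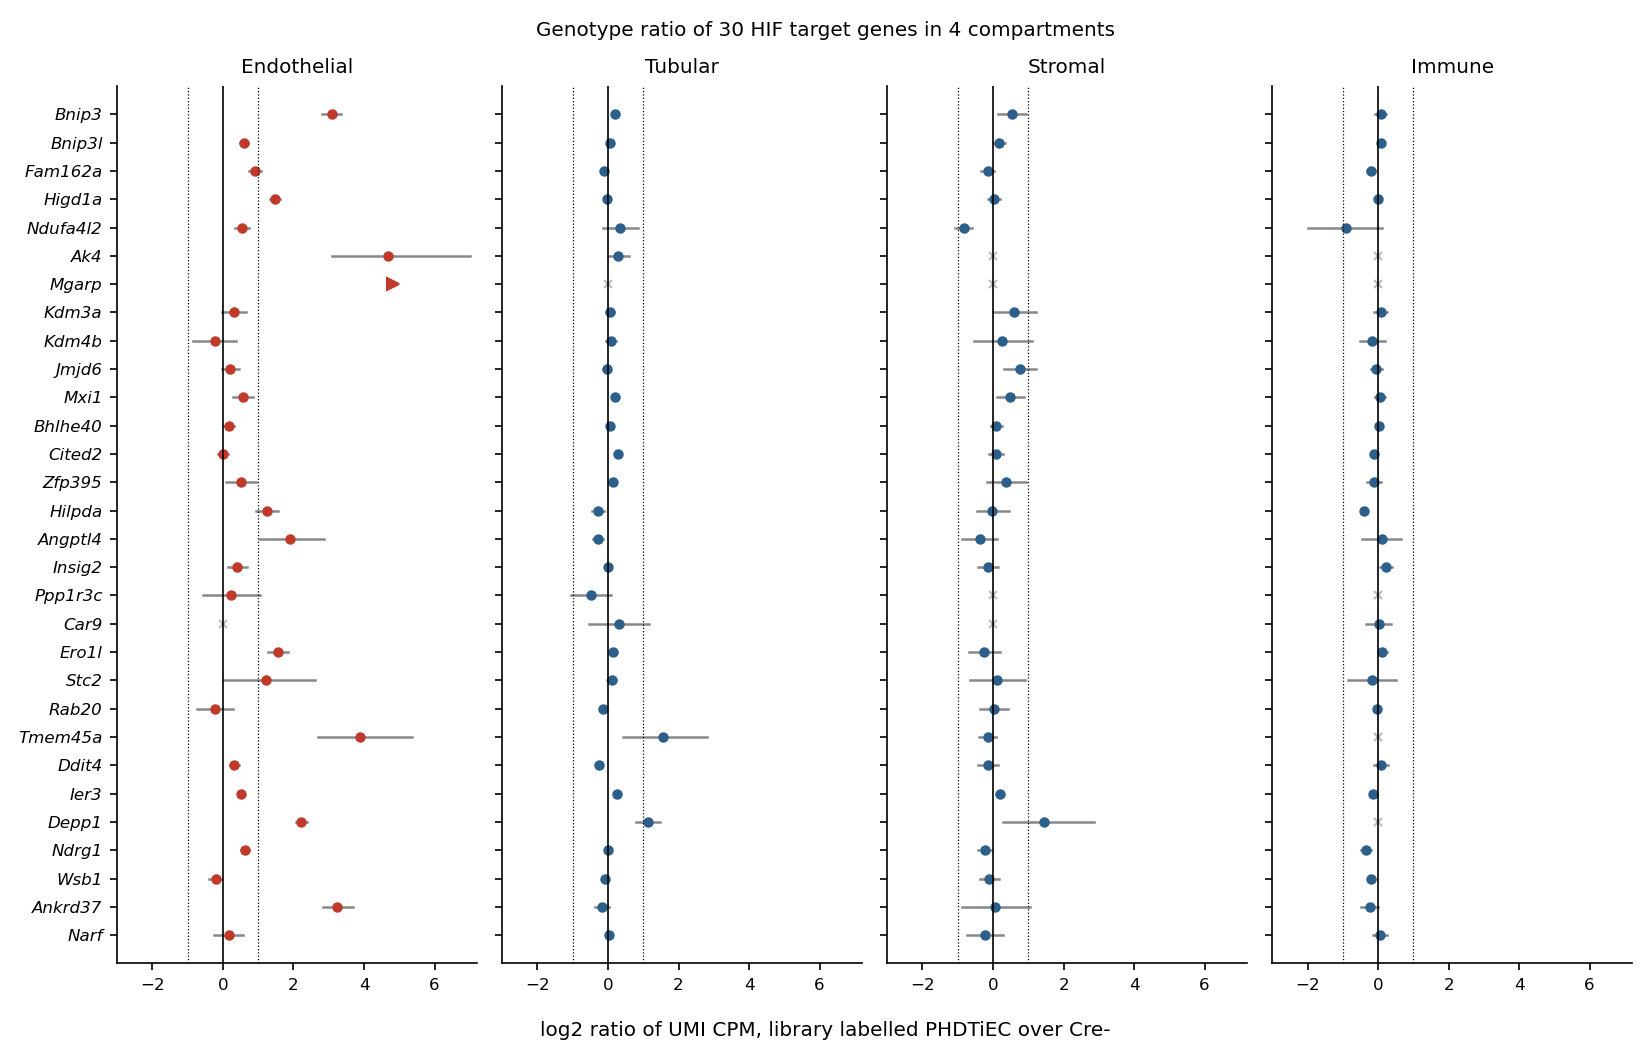
Log2 ratio of CPM, library labelled PHDTiEC over Cre-, for each member in endothelial-like, tubular-like, stromal-like and immune-like cells, with 95% counting intervals, dotted lines at 2-fold, a triangle for a lower bound and a cross for under 30 UMIs. The endothelial-like points reach 4.69 for Ak4 and 3.24 for Ankrd37, and in the other compartments most members lie within 2-fold of 0. Depp1 (tubular-like and stromal-like cells) and Tmem45a (tubular-like cells) lie past it at low CPM, and Ndufa4l2 lies at −0.83 in stromal-like cells.

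The mitochondrial members gave the largest ratios. All 7 passed the count minimum, 4 were at least 2-fold higher, and their median log2 ratio was 1.48. Bnip3, a mitophagy receptor of the outer membrane, went from 128 UMIs (26.1 CPM) in Cre- to 1279 UMIs (221.6 CPM) in PHDTiEC, a log2 ratio of 3.08 (2.82 to 3.36). Its paralog Bnip3l, also a mitophagy receptor, was already at 213.6 CPM and stood at 325.2 CPM, a ratio of 0.61 (0.50 to 0.72). A processed copy of Bnip3l in the genome leaves its reads uncertain. The pair lay far apart in Cre- and close together in the library labelled PHDTiEC.

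Higd1a, a small protein of the respiratory chain supercomplexes, stood at 115.1 and 321.4 CPM (564 and 1855 UMIs; 1.48, 1.34 to 1.62). Ak4, an adenylate kinase of the mitochondrial matrix, had 3 UMIs in Cre- and 91 in PHDTiEC (0.61 and 15.8 CPM; 4.69, 3.09 to 6.99). Mgarp, a mitochondrial transport protein, had 0 UMIs in the endothelial-like cells of Cre- and 100 in those of PHDTiEC (17.3 CPM), spread over 11.4% of the endothelial-like cells and with no cell holding more than 5.00% of them. Set against 3 counts, that is a log2 ratio of at least 4.82. Fam162a, a mitochondrial protein linked to hypoxic cell death, was at 86.1 and 162.2 CPM (0.91, 0.75 to 1.08), short of 2-fold, and passed it when barcodes were gated by markers (1.41).

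Ndufa4l2, a complex I-associated protein that lowers respiration in hypoxia, had the most uneven pattern of all members. It stood at 70.8 and 102.2 CPM in endothelial-like cells as a whole (0.53, 0.34 to 0.73). In mREC-like cells it had 4 UMIs in Cre- and 249 in PHDTiEC (2.32 and 98.3 CPM; 5.41, 4.03 to 7.29), in cREC-like cells 40 and 15 UMIs (37.5 and 11.9 CPM; −1.65, −2.61 to −0.76). Most of its Cre- UMIs, 303 of 347, came from the cluster with mural genes, where it was level (143.8 and 164.4 CPM; 0.19, −0.04 to 0.42). Ndufa4l2 is also a gene of pericytes, stromal markers held 0.491% and 0.630% of the UMIs of that cluster against 0.0151% and 0.0104% in mREC-like cells, and its cells had a median of 22945 and 19776 UMIs. The part of mural RNA in the Ndufa4l2 level was not tested. Without that cluster the endothelial ratio was 2.15 in place of 0.53.

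The secretory group held 3 of 4 members at least 2-fold higher, with a median of 1.40. Ero1l, the oxidase that drives disulphide formation in the endoplasmic reticulum, was at 27.1 CPM (133 UMIs) and 80.4 CPM (464 UMIs; 1.57, 1.29 to 1.86). Tmem45a, a membrane protein of the trans-Golgi, had 6 and 104 UMIs (1.22 and 18.0 CPM; 3.88, 2.71 to 5.36). Stc2, a secreted glycoprotein of calcium and phosphate handling, had 8 and 22 UMIs (1.22, 0.00 to 2.60), and 1 cell held 62.5% of the Cre- UMIs, so its 2-fold difference rests on few molecules and was 0.13 at a finer clustering. Rab20, a small GTPase of endosomes and phagosomes, was at 13.5 and 11.6 CPM (−0.21, −0.73 to 0.30) with an interval that held 0.

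The lipid, glycogen and acid-base group was split. Hilpda, which inhibits the lipase ATGL on lipid droplets, was at 25.1 CPM (123 UMIs) and 59.4 CPM (343 UMIs; 1.24, 0.94 to 1.55), and the mean over cells put it under 2-fold at 0.77. Angptl4, a secreted inhibitor of lipoprotein lipase, had 14 and 62 UMIs (2.86 and 10.7 CPM; 1.91, 1.06 to 2.86), and its ratio was 2.93 with gating by markers, 3.30 without the barcodes of highest doublet score and 4.01 with free RNA subtracted. Insig2, which retains the sterol sensor in the endoplasmic reticulum, was at 39.0 and 51.8 CPM (0.41, 0.14 to 0.68), and Ppp1r3c, a glycogen-targeting subunit of protein phosphatase 1, had 24 and 33 UMIs (0.22, −0.58 to 1.05). The pair of lipase inhibitors passed 2-fold, and the sterol and glycogen genes did not.

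In the stress and signalling group 2 of 7 passed 2-fold, and the median was 0.51. Ankrd37, an ankyrin-repeat protein, had 52 and 579 UMIs (10.6 and 100.3 CPM; 3.24, 2.83 to 3.68). Depp1, a regulator of autophagy downstream of FOXO, had 353 and 1940 UMIs (72.0 and 336.1 CPM; 2.22, 2.06 to 2.39). Ier3, an immediate early gene that moderates survival signalling, was the most abundant member at 974.3 and 1388 CPM, with a ratio of 0.51 (0.46 to 0.56).

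The others of that group did not reach 2-fold in either direction. Ndrg1, a stress-responsive protein of membrane trafficking, was at 201.6 and 308.4 CPM (0.61, 0.50 to 0.73), and Ddit4, the REDD1 inhibitor of mTORC1, at 186.1 and 232.8 CPM (0.32, 0.20 to 0.45). Narf, which binds prelamin A, had a ratio of 0.16 (−0.25 to 0.58). Wsb1, a substrate receptor of an E3 ubiquitin ligase, was at 107.3 and 93.0 CPM (−0.21, −0.38 to −0.03).

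None of the 7 chromatin and transcription members reached 2-fold, and their median was 0.21. The histone demethylases Kdm3a (26.3 and 32.6 CPM; 0.31, −0.02 to 0.64) and Kdm4b (9.79 and 8.32 CPM; −0.24, −0.84 to 0.37) and the lysyl hydroxylase Jmjd6 (47.9 and 55.4 CPM; 0.21, −0.04 to 0.46) had intervals that held 0. The MYC antagonist Mxi1 (31.2 and 46.3 CPM; 0.57, 0.28 to 0.86) and the DNA-binding factor Zfp395 (15.5 and 22.0 CPM; 0.50, 0.08 to 0.93) were higher within 2-fold. Bhlhe40, a repressor of the circadian loop, was at 155.7 and 175.7 CPM (0.17, 0.04 to 0.31). Cited2, which competes with HIF for the coactivator CBP/p300, was at 145.7 and 144.8 CPM (−0.01, −0.15 to 0.14).

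The same genes were then read in the cells where Cdh5-CreERT2 is not active. In tubular-like cells 2 of 29 members with enough UMIs were at least 2-fold higher, where 0.998% of all genes were. The median was 0.06, and all genes had a median of 0.04. Depp1 had 104 and 251 UMIs (1.55 and 3.42 CPM; 1.14, 0.80 to 1.48) and Tmem45a 9 and 29 UMIs (0.13 and 0.39 CPM; 1.55, 0.44 to 2.82). Both were under 4 CPM there.

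In stromal-like cells 1 of 26 members passed (all genes 2.96%), with a median of 0.05 against 0.07 for all genes. It was Depp1 again, with 7 and 38 UMIs (2.49 and 6.86 CPM; 1.46, 0.28 to 2.87), 1 cell holding 28.9% of the PHDTiEC UMIs. Ndufa4l2 was lower there, at 93.7 and 52.7 CPM (−0.83, −1.08 to −0.58). In fibroblast-like cells 1 of 24 members passed (Kdm3a, 1.07; all genes 3.89%), and in pericyte-like cells 3 of 20 (Bnip3 1.16, Depp1 2.20, Jmjd6 1.05; all genes 4.88%). In immune-like cells 0 of 25 passed (all genes 0.694%), the median was −0.04 against 0.03, and Hilpda was at 115.8 and 87.3 CPM (−0.41, −0.48 to −0.33).

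The free RNA of the suspension, read from barcodes with under 100 UMIs, held several of these genes at different levels in the libraries. There Depp1 was at 4.97 and 14.5 CPM, Ndufa4l2 at 2.07 and 7.72 CPM, Tmem45a at 1.24 and 3.29 CPM, and Bnip3 at 45.8 and 49.1 CPM. With that profile subtracted, or without the barcodes of highest doublet score, 0 members passed 2-fold in tubular-like cells. Its part in the other values of low-count members outside the endothelium was not tested.

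The difference between compartments was then taken gene by gene, as the endothelial log2 ratio minus that of another compartment with its exact counting interval. Over the 28 members with a UMI in each compartment and library, the median difference was 0.56 against tubular-like, 0.66 against stromal-like and 0.64 against immune-like cells. No higher minimum of UMIs was set for them. The interval lay above 0 for 16, 15 and 15 of them and below 0 for 1, 1 and 0. These differences were not computed for all genes, so the share of all genes with such intervals is not known. Ankrd37 differed by 3.41 (2.94 to 3.89), 3.18 (2.08 to 4.21) and 3.48 (2.99 to 3.98) in that order, and Bnip3 by 2.88 (2.61 to 3.16), 2.55 (2.06 to 3.03) and 3.01 (2.70 to 3.33). Higd1a, Ero1l, Ak4, Fam162a and Hilpda were on the same side with intervals off 0 in each of the 3 comparisons, and so were Angptl4, Bnip3l, Ndrg1, Ier3 and Ddit4. Depp1 differed from tubular-like cells by 1.09 (0.70 to 1.46), and its intervals against stromal-like (0.76, −0.66 to 1.96) and immune-like cells (1.15, −0.38 to 2.50) held 0. Going the other way, Cited2 was lower against tubular-like cells (−0.29, −0.44 to −0.14) and Jmjd6 against stromal-like cells (−0.55, −1.08 to −0.03).

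Within a library, the place of endothelium among the cell types also shifted. In Cre- the members were not higher than in tubular-like cells as a group, since 5 of 27 were at least 2-fold higher in endothelial-like than in tubular-like cells (all genes 16.7%), 7 were at least 2-fold lower (all genes 21.2%), and the median log2 difference was −0.30 (all genes −0.07). In the library labelled PHDTiEC 14 of 30 were higher (all genes 16.7%), 3 were lower (all genes 22.5%), and the median was 0.84 (all genes −0.11). The minimum of 30 UMIs was applied within each library, over both compartments, so the sets of members differ between libraries. Car9, Mgarp and Tmem45a passed it only in the library labelled PHDTiEC. Mgarp (6.99) and Tmem45a (5.51) are among the 14, which were not recounted without them. Bnip3 moved from −1.47 to 1.41, Ak4 from −2.02 to 2.38, and Ankrd37 from 0.85 to 4.26. Rab20 (−2.44 and −2.52), Ndrg1 (−1.97 and −1.35) and Stc2 (−3.12 and −2.01) remained genes with more RNA in tubular-like cells in both libraries.

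Against stromal-like cells 5 of 27 members were at least 2-fold higher in Cre- (all genes 14.1%) and 13 of 29 in PHDTiEC (all genes 12.3%), with medians of 0.14 (all genes 0.13) and 0.96 (all genes 0.03). Against immune-like cells the counts were 6 of 26 (all genes 31.9%) and 19 of 30 (all genes 30.1%), with medians of 0.53 (all genes 0.51) and 1.52 (all genes 0.44), and TMM scaling put the members at −0.13 and 0.94. Ak4 and Mgarp passed the minimum against stromal-like cells only in PHDTiEC, and so did Ak4, Mgarp, Ppp1r3c and Tmem45a against immune-like cells. All of these are among the 13 and the 19, which were not recounted without them. Depp1 was far higher in endothelial-like cells in both libraries, at 72.0 and 336.1 CPM against 2.49 and 6.86 CPM in stromal-like and 0.25 and 0.52 CPM in immune-like cells. Tmem45a was higher in stromal-like cells in both, at 73.8 and 66.2 CPM, and Hilpda and Rab20 were higher in immune-like than in endothelial-like cells in both.

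**Figure D2:**
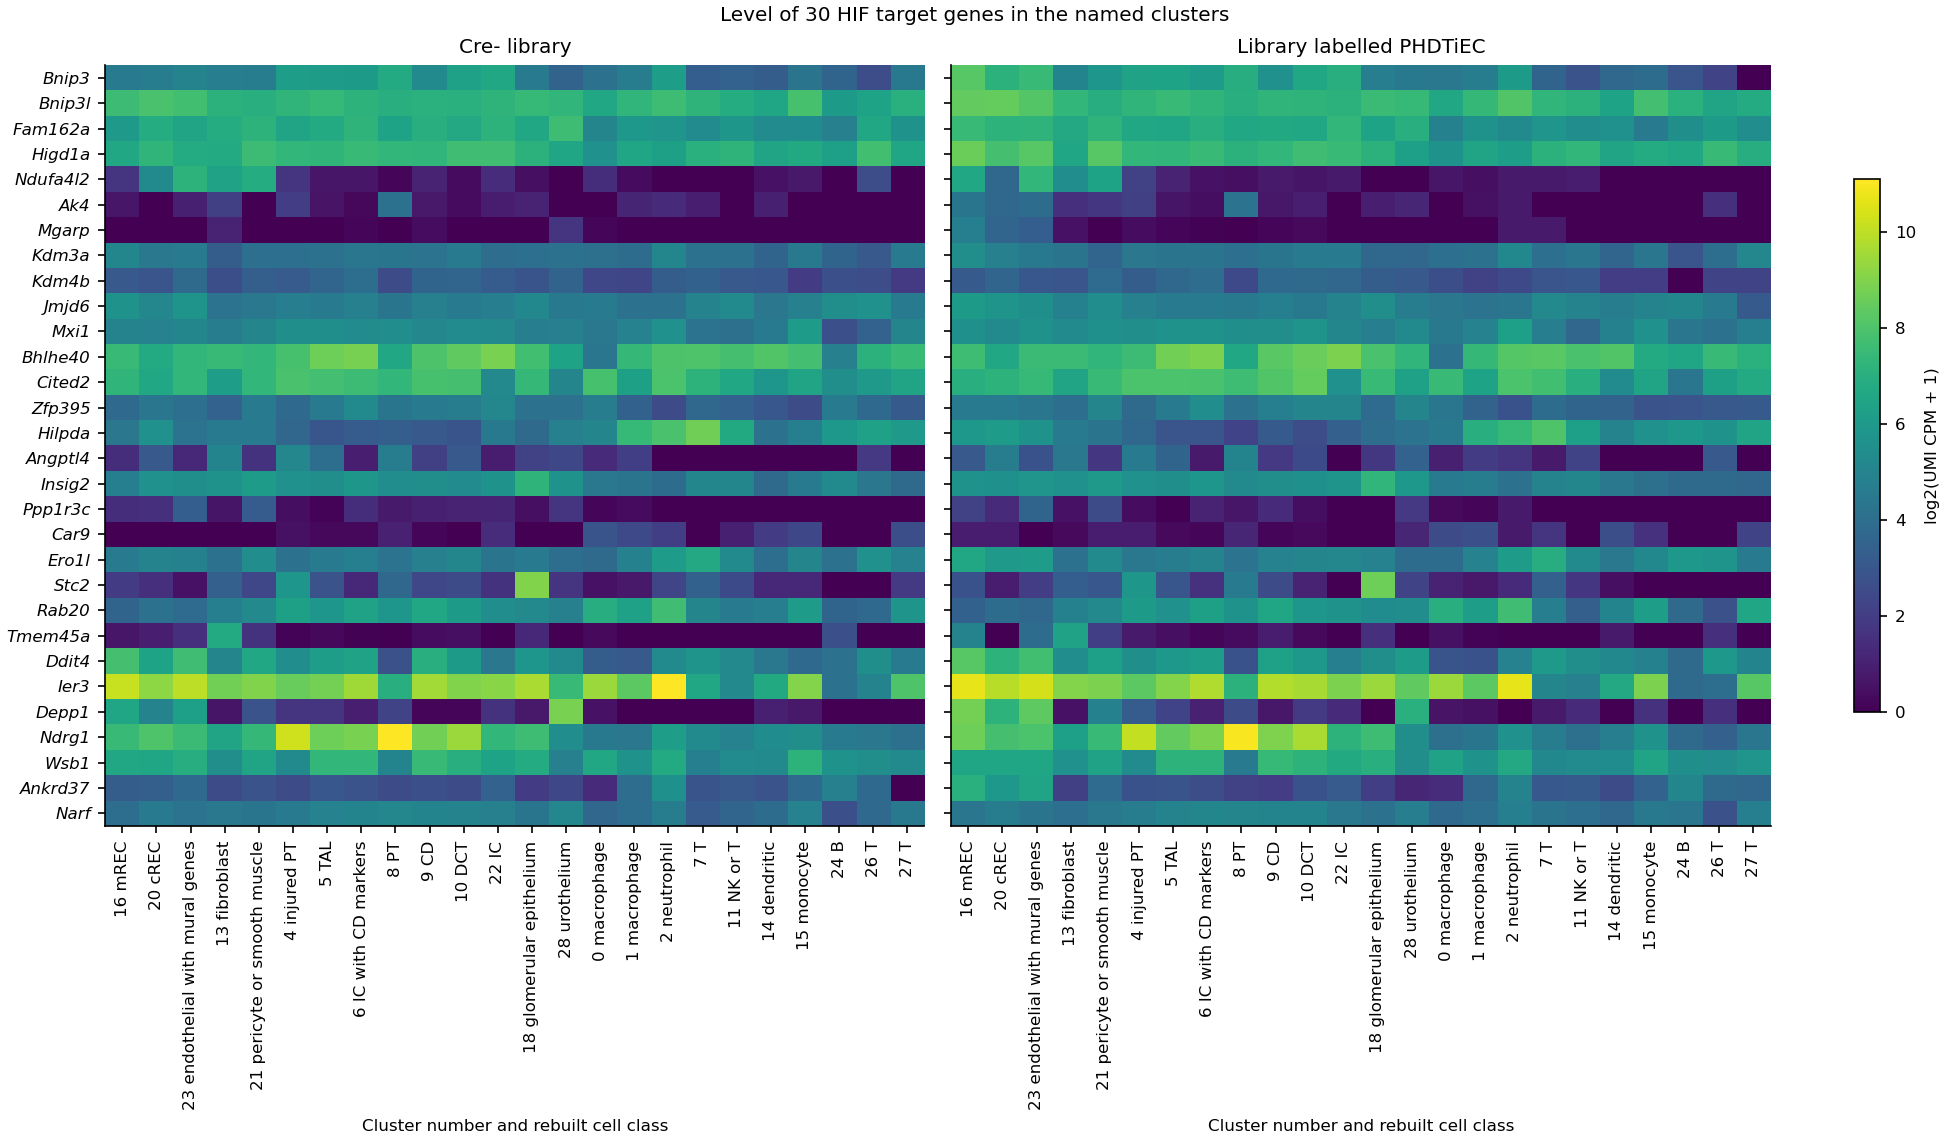
Level of each member, as log2 of CPM plus 1, in the 24 named clusters of each library, with brighter cells for higher levels. In the library labelled PHDTiEC the mREC-like column is the highest for Bnip3 (294.1 CPM), Ankrd37 (129.9 CPM) and Higd1a (386.8 CPM), whereas Ndrg1, Stc2, Hilpda and Rab20 have their highest levels in the same non-endothelial cluster types in both libraries.

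Across 25 clusters, the highest level of several members changed place. These were the named clusters and 1 unnamed cluster led by Slc14a2 and Fst, and the other unnamed clusters were left out. Ankrd37 was highest in neutrophil-like cells in Cre- (46.9 CPM, an interval that overlapped the next cluster's) and in mREC-like cells in PHDTiEC (129.9 CPM, next 88.3 CPM, intervals apart). Bnip3 was highest in proximal tubule-like cells in Cre- (108.4 CPM, an interval that overlapped that of intercalated cell-like cells at 96.4 CPM) and in mREC-like cells in PHDTiEC (294.1 CPM). Depp1 went in the same way from urothelium-like (472.2 CPM) to mREC-like cells (438.2 CPM).

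Other members kept their place. Ndrg1 was highest in proximal tubule-like cells (2189 and 2045 CPM), Stc2 in the glomerular epithelium-like cluster (510.3 and 405.8 CPM), Hilpda in T cell-like cells (414.7 and 264.5 CPM) and Tmem45a in fibroblast-like cells (111.0 and 84.7 CPM). Rab20 was highest in neutrophil-like cells, at 205.9 and 207.3 CPM, and so was Ier3, at 2206 and 1681 CPM, although in PHDTiEC its interval overlapped that of mREC-like cells (1642 CPM). Car9 was at most 6.49 and 5.58 CPM, in macrophage-like cells, with intervals that overlapped the next. Bhlhe40 was highest in intercalated cell-like cells (464 and 489.5 CPM, in different clusters of that class with overlapping intervals), and Wsb1 in collecting duct-like cells (179 and 175 CPM, the former with an interval that overlapped the next).

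Within the endothelium the difference was largest in mREC-like cells. There 12 of 26 members were at least 2-fold higher in the library labelled PHDTiEC (all genes 2.57%), and the median was 0.91 (all genes 0.02). In cREC-like cells 5 of 23 passed (all genes 2.63%), with a median of 0.49 (all genes 0.01), and in the cluster with mural genes 8 of 26 (all genes 1.84%), with a median of 0.35 (all genes 0.00). Left without the cluster with mural genes, the endothelium had 12 of 27 members past 2-fold (179 of all 10716 genes) and a median of 0.70 (all genes 0.00). Ankrd37, Bnip3, Depp1 and Ero1l passed in each of the 3 clusters.

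The mREC-like and cREC-like ratios were compared directly for the 26 members with a UMI in each cluster and library, and the median difference was 0.36. The interval lay above 0 for 8 of them and below 0 for 2, and it held 0 for the others. These differences were not computed for all genes. Higd1a had a ratio of 1.99 in mREC-like cells (97.3 and 386.8 CPM) and 0.58 in cREC-like cells (150.9 and 226.1 CPM), a difference of 1.41 (1.03 to 1.78). Ndrg1 had 1.14 and −0.19, a difference of 1.33 (1.02 to 1.64), and Fam162a 1.55 and 0.27, a difference of 1.28 (0.81 to 1.74). Bnip3 had 3.74 (22.0 and 294.1 CPM) and 2.45 (25.3 and 138.5 CPM), a difference of 1.29 (0.48 to 2.08). For all 4 the mREC-like level was below the cREC-like level in Cre- and above it in the library labelled PHDTiEC. For Bnip3 the Cre- levels were close (22.0 and 25.3 CPM), and their order was not tested.

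The ratio of Ndufa4l2 differed by 7.06 (5.29 to 9.11), since it was higher in mREC-like and lower in cREC-like cells. Depp1 had the same ratio in both, 2.25 and 2.27 (difference −0.02, −0.66 to 0.59), although its level was 92.0 and 438.2 CPM in mREC-like and 30.0 and 144.9 CPM in cREC-like cells. Cited2 went the other way, at −0.31 in mREC-like and 0.49 in cREC-like cells (−0.81, −1.24 to −0.38). Ier3 was the other member with an interval below 0 (difference −0.18, −0.34 to −0.02). Mgarp had 0 UMIs in all 3 Cre- clusters and 68, 14 and 18 in the mREC-like, cREC-like and mural-gene clusters of PHDTiEC. Tmem45a had 1 and 76 UMIs in mREC-like cells, 4 and 28 in the cluster with mural genes, and 1 and 0 in cREC-like cells.

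Beside these values, cREC-like cells had a higher upper bound on free RNA and were shallower. The bound takes every UMI of a tubular or immune marker gene as free, so it does not measure free RNA. At most 44.4% and 35.2% of their UMIs could be free RNA, against 19.9% and 12.2% in mREC-like cells, and their median depth was 3934.5 and 3419 UMIs against 7030.5 and 8951. Tubular markers took 0.171% and 0.0502% of the cREC-like UMIs, and immune markers 0.168% and 0.210%. The part of depth and free RNA in the gap between the clusters was not tested.

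**Figure D3:**
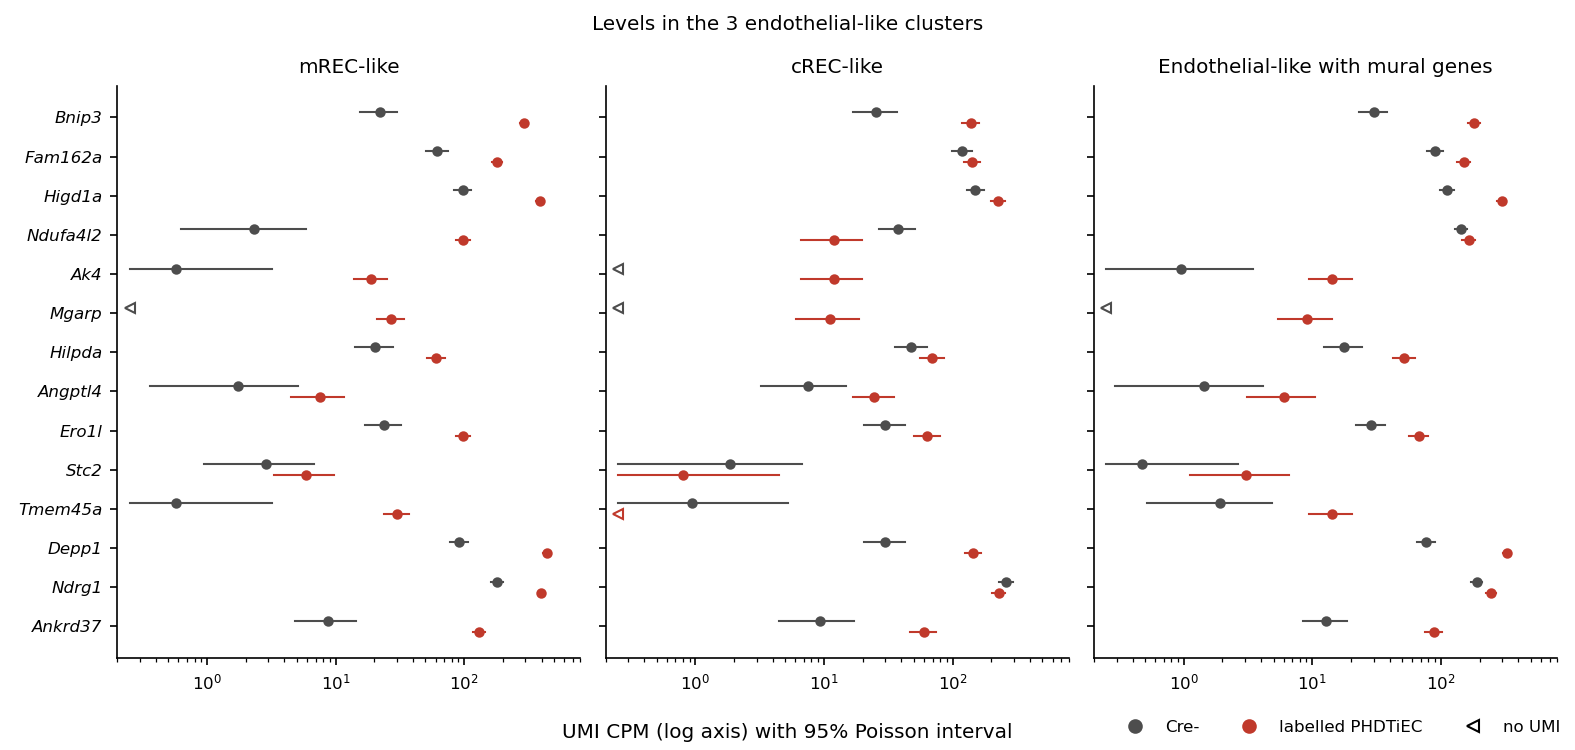
Levels of 14 members (CPM, log axis, with 95% Poisson intervals) in the mREC-like, cREC-like and mural-gene clusters of the endothelium, grey for Cre- and red for the library labelled PHDTiEC. Bnip3, Ankrd37 and Depp1 are apart in all 3 clusters, Ndufa4l2 stands at 2.32 and 98.3 CPM in mREC-like and 37.5 and 11.9 CPM in cREC-like cells, and an open triangle marks no UMI.

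In single cells, thinned to 2000 UMIs each so that depth was equal, more members were seen together in the library labelled PHDTiEC. The median endothelial-like cell showed 3 members in Cre- (347 cells, 54 too shallow) and 4 in PHDTiEC (471 cells, 66 too shallow). At least 5 members were seen in 18.4% (14.5 to 22.9) and 45.2% (40.7 to 49.8) of cells, and at least 8 in 1 Cre- cell (0.29%) and 72 PHDTiEC cells (15.3%, 12.2 to 18.9). Without thinning the medians were 8 and 9, and at least 5 members were seen in 73.8% and 72.4%.

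The median tubular-like cell also showed 3 members in Cre- and 4 in PHDTiEC, and the stromal-like and immune-like medians were 2 in both libraries. The shares of cells with many members differed less in these compartments than in endothelial-like cells. At least 5 members were seen in 26.8% and 30.1% of tubular-like, 13.1% and 11.2% of stromal-like and 5.73% and 4.35% of immune-like cells, and at least 8 in no more than 1.59% of any of them. In mREC-like cells at least 8 were seen in 0.61% and 22.7%, in cREC-like cells in 0 of 96 cells (exact interval up to 3.77%) and 6.96%.

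**Figure D4:**
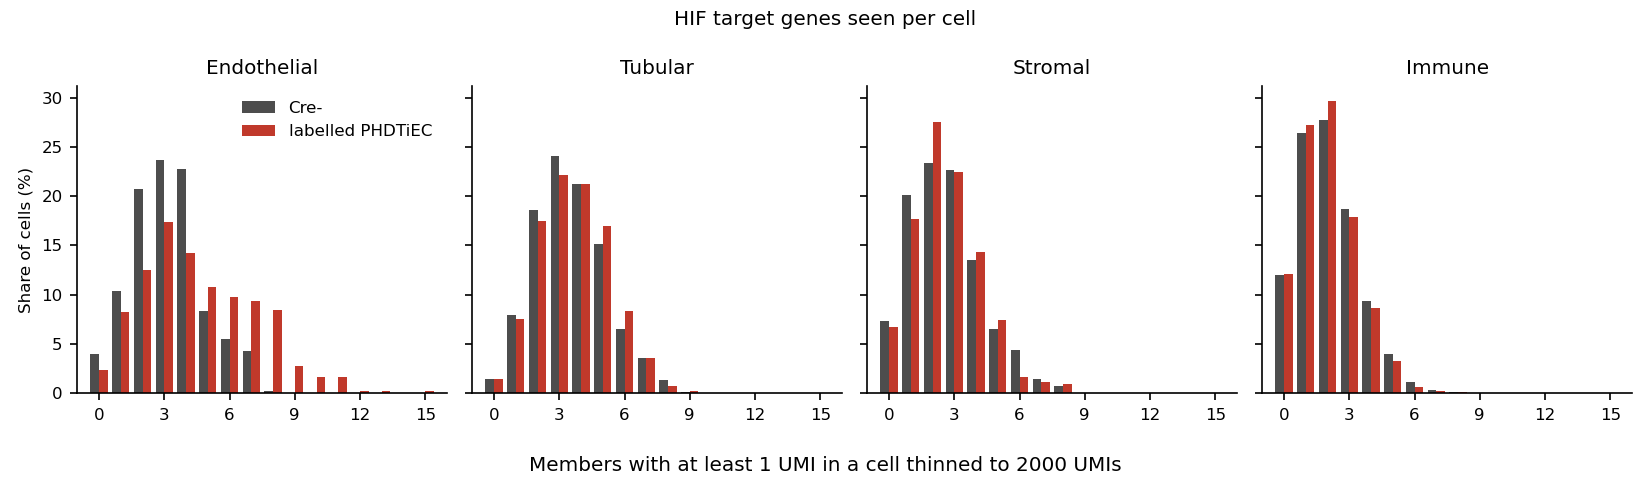
Share of cells (%) by the number of members with at least 1 UMI after thinning to 2000 UMIs a cell, in the 4 compartments of each library. The endothelial-like cells of the library labelled PHDTiEC have 15.3% of cells at 8 or more members, against 0.29% in Cre-. The other compartments have no more than 1.59% there in either library.

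The thinned share of endothelial-like cells with a UMI was 8.65% and 35.5% for Depp1, 4.03% and 22.7% for Bnip3, 1.44% and 12.1% for Ankrd37, and 22.2% and 34.6% for Higd1a. Ier3 was seen in 68.0% and 73.2%, and Wsb1 in 18.7% and 14.0%. In the PHDTiEC library, endothelial-like cells with an Ankrd37 UMI showed a median of 7 other members and those without it 4, and for Bnip3 the medians were 6 and 3. In Cre- they were 2 and 3 for Ankrd37 (5 cells with a UMI) and 3.5 and 3 for Bnip3 (14 cells). Among members short of 2-fold, the PHDTiEC medians were 7 and 4 for Kdm4b (8 cells) and Ppp1r3c (6 cells). They were 4 and 4 for Cited2 and 3 and 4 for Rab20. Of immune-like cells, at a median depth of 5582 and 6054 UMIs without thinning, 0.174% and 0.388% had a Depp1 UMI and 11.5% and 12.4% a Bnip3 UMI, against 33.4% and 51.8% and 22.4% and 42.6% of unthinned endothelial-like cells at a median of 8001 and 7346 UMIs.

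The other lists of the pathway place these values. Of all genes with enough UMIs in endothelial-like cells, 1.55% were at least 2-fold higher. In endothelial-like cells 14 of 19 glycolytic HIF targets were at least 2-fold higher (median 1.18; Aldoc 5.29 from 1 and 46 UMIs, Slc16a3 3.31, with Hk1 at 0.38 and Pfkfb4 at −0.52 the lowest), and 10 of 19 secreted, vascular and matrix targets (median 1.01; Adm 3.40, Stc1 1.83, with Cp at −0.13 and Angpt2 at −0.34). Of 8 HIF subunits and sensors with enough UMIs 2 were higher, Egln3 and Egln1, with Arnt at −0.15 and Hif1an at −0.49 the lowest. Immediate early genes of tissue dissociation had a median of −0.14 with 0 of 12 past 2-fold, from Fos at 0.12 to Hspa1b at −0.37. Their median was −0.20 in mREC-like cells, −0.20 in the cluster with mural genes and 0.36 in cREC-like cells, where all 12 lay above 0. The 6 glucocorticoid-responsive genes had a median of 0.42 with 0 past 2-fold, from Tsc22d3 at 0.73 to Zbtb16 at 0.21. The median of that list was also above 0 in tubular-like (0.29), stromal-like (0.28, 5 genes) and immune-like cells (0.48).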

How the data were processed

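Single-cell RNA was captured with the 10x Genomics Chromium 3′ kit (v3.1). The authors aligned the reads to mm10 with Cell Ranger (version 4 per the file headers) and deposited raw UMI counts per gene for all barcodes, with no cell filter, free-RNA correction or normalization, in 136004367 and 146758812 UMIs. Barcodes with 500 to 100000 UMIs, at least 200 genes and at most 50% mitochondrial UMIs were kept (8548 and 9309). They were clustered in Seurat 5.3.0 under R 4.3.3 (2000 variable genes, 20 principal components, resolution 0.8) with the members and other HIF and glycolysis genes left out of the variable genes, and named by marker lists. Scrublet called 0 doublets in both libraries, and none were removed. Its threshold was passed by only 0.37% and 0.15% of its own simulated doublets, so the 0 calls do not measure the share of doublets. UMIs were summed per class and library. Counts and medians of genotype ratios needed 30 UMIs per gene over both libraries. Differences in level within a library needed 30 UMIs over both compartments. Differences of ratios needed only a UMI in each class and library compared. A log2 ratio of 1 (2-fold) was the limit of size. Intervals were exact: Poisson for a level, binomial (Clopper-Pearson) for a ratio or a share, and conditional for a difference of ratios. A gene at 0 in 1 library was set against 3 counts. With 1 library per genotype no test was run. The ratio script was checked on simulated data. Members at least 2-fold apart in endothelial-like cells, the 3 highest in each compartment and those past 2-fold elsewhere were described in full, and the other lists by their 2 highest and 2 lowest genes. The members and lists were chosen with earlier results of these data known, the paper's included. Alternatives covered barcode filters, doublets, cluster resolution, gating by markers, scaling (TMM in edgeR 4.0.16), free RNA and limits of count and fold.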

Additional observations from a re-analysis of the deposited data

Results flagged for a closer look

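For 3 members the library labelled PHDTiEC was at least 2-fold higher in some clusters and at least 2-fold lower in others. With 1 library per genotype these opposite directions were not tested. Depp1 had log2 ratios of 2.25 in mREC-like, 2.27 in cREC-like and 2.09 in the endothelial-like cluster with mural genes, and −1.85 in urothelium-like cells, a cluster of 24 and 33 cells with 221 and 102 Depp1 UMIs in which 1 cell held 27.6% and 20.6% of them. Hilpda had 1.58 in mREC-like cells and 1.56 in the cluster with mural genes, but −1.30 in proximal tubule-like cells (62 and 32 UMIs, 27.4% of the Cre- UMIs in 1 cell) and −1.17 in intercalated cell-like cells (52 and 13 UMIs, 38.5% and 53.8% in 1 cell). Ndufa4l2 had 5.41 in mREC-like and −1.65 in cREC-like cells.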

How the results depend on the processing

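No paired analysis was possible because each genotype has 1 library. Of the members past 2-fold in endothelial-like cells, those with UMIs in both libraries changed direction under no alternative that left them 30 UMIs and a UMI in each library (11 settings for Stc2, 14 for Ak4 and 15 for the others), and Mgarp, with 0 UMIs in Cre-, was not recomputed alone. In all, 282 of 308 summary values stayed within their error or within 1.5 times of a count. The number of members at least 2-fold higher in endothelial-like cells ranged from 8 to 14, that in mREC-like cells from 9 to 16, and the endothelial median log2 ratio from 0.52 to 0.81. The counts in tubular-like and stromal-like cells rest on members at low CPM, of which Depp1 had 104 and 251 UMIs in tubular-like cells. In tubular-like cells the count of 2 became 0 without the 8% highest Scrublet scores, with gating by markers, with the mean over cells and with free RNA subtracted, and 1 at resolution 1.2, with HIF genes kept for clustering and at 100 UMIs a gene. In stromal-like cells the count of 1 became 0 without those Scrublet barcodes (637 and 716), at resolutions 0.4 and 1.2, with HIF genes kept, with gating and at 100 UMIs, and 3 at 1.5-fold. In immune-like cells the count of 0 became 2 at 10 UMIs. In cREC-like cells the count of 5 became 3 at 100 UMIs and 8 at 1.5-fold. The tubular median of 0.06 became 0.0024 without mitochondrial, ribosomal and haemoglobin genes, 0.0251 with TMM and 0.0254 with free RNA subtracted. The median level over tubular-like cells in PHDTiEC became 1.01 without the Scrublet barcodes and 1.12 with gating, that over immune-like cells in Cre- 0.31, 0.20 and, with TMM, −0.13, and that over stromal-like cells in PHDTiEC 0.48 with the mean over cells. The cause of these shifts was not tested. Among single members, Hilpda fell under 2-fold with the mean over cells (log2 ratio 0.77), Stc2 at resolution 1.2 (0.13) and with HIF genes kept (0.41), Angptl4 moved from 1.91 to between 2.93 and 4.01 under 3 alternatives, while Ndufa4l2, Fam162a and Mxi1 passed it with gating (1.91, 1.41 and 1.16), Fam162a also in 3 other alternatives (1.01 to 1.07), and Ndrg1 with free RNA subtracted (1.22). Ratios near 0 changed sign: Rab20 and Wsb1, both at −0.21, stood at 0.70 and 0.05 with gating, Kdm4b at 0.33 without the cluster with mural genes, and the stromal median ranged from −0.07 to 0.07. Scrublet's own threshold called no doublet, so removal by it gave no value, and at resolution 0.4 the mREC-like and cREC-like cells merged. The Scrublet share, the class without the cluster with mural genes and the class without barcodes rich in tubular markers were chosen after seeing the data.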
